A study of Rattus norvegicus with 10 samples.

Results

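The collagen chain genes described here are all genes whose single symbol on the array has the form Col, number, a, number. This gave 41 genes with 58 probe sets, of 14217 gene symbols on the array, and each gene was read from its probe set with the highest mean over all arrays. They comprise 11 fibrillar chains, 7 chains of the basement membrane and its border zone, and 23 other chains. RNA was taken from primary cultured ventricular myocytes of Lewis rats aged 0 to 3 days and read on Affymetrix arrays. After recovery, cultures were kept for 3 days with electric pulses and blebbistatin (3 arrays), with electric pulses alone (4 arrays) or without pulses (3 arrays). The pulse rate was 1 Hz at a field of 2 V/cm. Blebbistatin, which inhibits myosin II and so stops the cells from shortening, was used at 10 µmol/L. There were 4 culture series, numbered 1 to 4 by date, and RNA of duplicate experiments was pooled before hybridisation. All groups were present in series 2 and 3, whereas series 1 lacked blebbistatin and series 4 lacked nonpulsed cultures. There was no nonpulsed culture with blebbistatin, so the drug's effect on paced contraction and its other effects cannot be told apart.

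Collagens are made of 3 intertwined chains. Fibrillar collagens build banded fibrils, of which those of types I and III, with type V, give the heart wall its tensile strength, while types II and XI are best known from cartilage. Types V and XI start and limit fibril growth. Type IV collagens form the sheet-like network of basement membranes, which surrounds each heart muscle cell and underlies blood vessels, while types XV and XVIII sit where that membrane meets the fibrils. Other types decorate fibrils, form beaded filaments or cross the cell membrane. In the heart the fibrillar types come mainly from fibroblasts, so a culture of heart muscle cells also reports on its nonmuscle cells. In such bulk RNA, fewer cells of a type and less RNA per cell cannot be told apart.

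Values are log2 expression values, and a log2 change of -1 means a halved level. Changes are limma estimates with culture series as a block, a passing change has a Benjamini-Hochberg adjusted p under 0.05 over all 18393 features tested, and group averages are given with their SD over arrays. The number of arrays limits the precision. Levels of different probe sets cannot be set against each other, so genes are compared only by their changes. Of the 41 genes, 35 passed the filter on low values and were tested (11 of 11 fibrillar, 7 of 7 basement membrane and 17 of 23 other chains). The 6 untested genes were Col13a1, Col19a1, Col25a1, Col6a5, Col6a6 and Col9a1. Col25a1, which encodes a transmembrane collagen, and Col9a1, a chain of the fibril-decorating type IX, stood at the lowest level of the array on 9 of 10 arrays each, while 0 genes did so on all 10. Col13a1, another transmembrane collagen, was at that level on 2 nonpulsed arrays, and Col6a6, a chain of type VI, on 1 pulsed and 1 nonpulsed array.

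Col15a1, which encodes the collagen of the border zone between basement membrane and fibrils, was the 1 collagen gene that passed in any comparison. Its level fell 3.36-fold in pulsed cultures with blebbistatin compared with nonpulsed cultures (log2 change -1.75, SE 0.21, limma, Benjamini-Hochberg adjusted p = 0.0323), against 0.343% of all features called in that comparison. In series 2, 3 and 4 the pulsed cultures with blebbistatin had log2 values of 8.0, 7.90 and 9.02. The pulsed cultures had 9.48, 8.96, 9.04 and 10.51 in series 1 to 4, and the nonpulsed cultures 10.68, 9.55 and 9.37 in series 1 to 3. All arrays with blebbistatin lay below all nonpulsed arrays, and in series 2 and 3 the order was blebbistatin, pulsed and nonpulsed from low to high. The direct differences between blebbistatin and nonpulsed cultures were -1.55 in series 2 and -1.47 in series 3. A limma fit on only these series gave a smaller log2 change of -1.51 (adjusted p = 0.0446). The log2 change was -1.11 (SE 0.18, adjusted p = 0.137) between pulsed cultures with and without blebbistatin and -0.64 (SE 0.18, adjusted p = 0.494) between pulsed and nonpulsed cultures. These comparisons share arrays, so their values are not independent of each other. The further Col15a1 probe set had log2 changes of -1.87, -1.16 and -0.71 in the same order of comparisons. The call was lost without the block (adjusted p = 0.121), with only the 2 groups compared (adjusted p = 0.0697), without the filter on low values (adjusted p = 0.0690), and when any array of series 2, 3 or 4 was left out (adjusted p of 0.0639 to 0.177 for single arrays, up to 0.329 for a whole series). Between pulsed cultures with and without blebbistatin the change of Col15a1 passed when series 1 was left out (adjusted p = 0.0413).

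**Figure D1:**
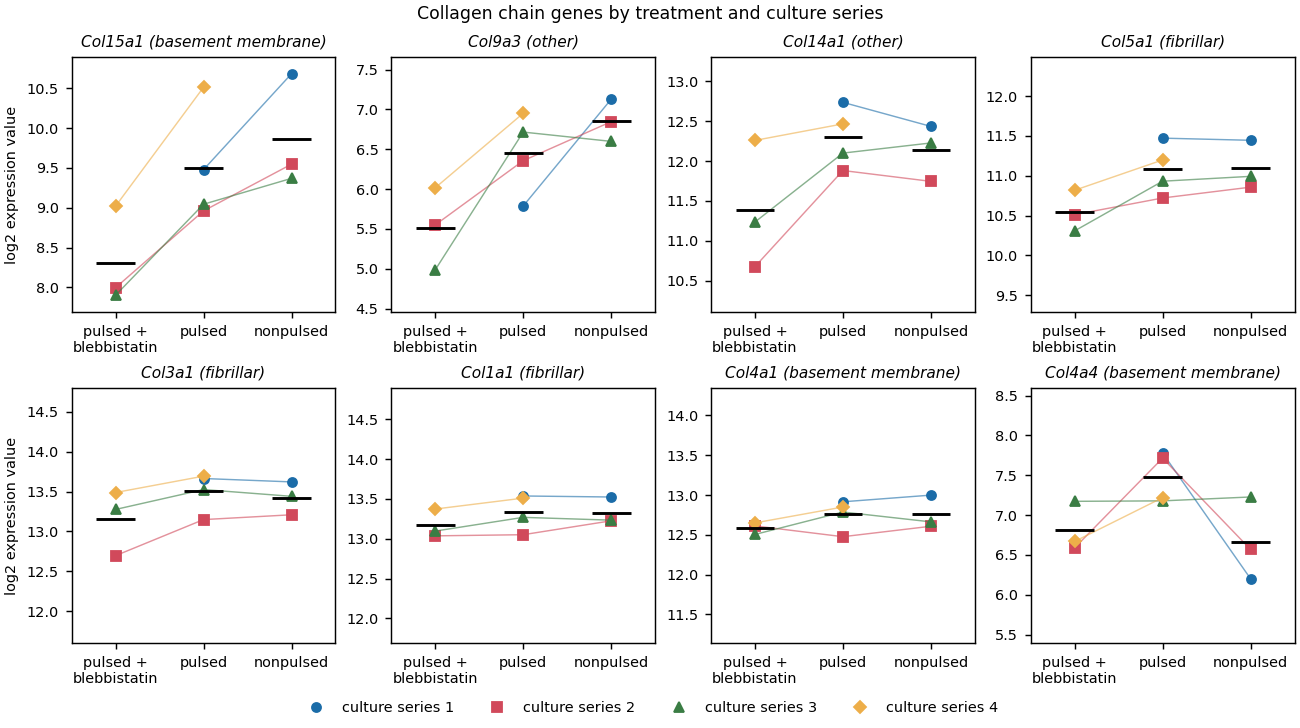
Log2 expression values (vertical axis, each panel spanning the same range) of 8 collagen chain genes in pulsed cultures with blebbistatin, pulsed cultures and nonpulsed cultures. Symbols are single arrays, thin lines join arrays of a culture series and black bars are group means. Col15a1 lies lowest with blebbistatin in every series that held it, while Col1a1 and Col4a1 differ little between treatments.

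The other basement membrane chains had smaller changes with blebbistatin. Col4a1 and Col4a2, the chains of the common type IV network, are neighbouring genes read in opposite directions. Their windows from 250 bases before to 50 after the gene start were taken from RefSeq on GRCr8. They are shown because these genes share them in part, with that of Col15a1 for comparison. Whether the shared bases bear on the levels of these genes was not tested. Capitals mark the motifs searched for on either strand, which were CCAAT (bound by NF-Y), the GC box GGGCGG (bound by SP1) and CATTCC (bound by TEAD factors).
Col4a1, chr16:84885347-84885646, plus strand: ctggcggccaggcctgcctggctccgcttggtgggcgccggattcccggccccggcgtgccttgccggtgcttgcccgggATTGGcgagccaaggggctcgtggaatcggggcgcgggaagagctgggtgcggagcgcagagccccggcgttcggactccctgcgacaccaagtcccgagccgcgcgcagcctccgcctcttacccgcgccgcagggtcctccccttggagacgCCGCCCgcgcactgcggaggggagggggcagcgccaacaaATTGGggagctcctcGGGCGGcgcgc
Col4a2, chr16:84885471-84885770, minus strand: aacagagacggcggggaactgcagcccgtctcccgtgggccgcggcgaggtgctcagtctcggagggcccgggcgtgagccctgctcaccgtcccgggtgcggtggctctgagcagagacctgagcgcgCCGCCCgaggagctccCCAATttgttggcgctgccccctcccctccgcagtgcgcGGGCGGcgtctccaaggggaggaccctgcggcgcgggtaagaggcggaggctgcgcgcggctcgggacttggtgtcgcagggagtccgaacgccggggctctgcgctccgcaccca
Col15a1, chr5:66297296-66297595, plus strand: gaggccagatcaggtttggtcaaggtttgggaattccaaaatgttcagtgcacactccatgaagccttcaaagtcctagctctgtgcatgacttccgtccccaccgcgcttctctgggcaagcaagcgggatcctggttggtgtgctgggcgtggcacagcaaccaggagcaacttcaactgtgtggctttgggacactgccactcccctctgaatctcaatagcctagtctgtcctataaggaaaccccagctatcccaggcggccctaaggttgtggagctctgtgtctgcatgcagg
The Col4a1 and Col4a2 windows share 176 bases, and the annotated starts lie 77 bases apart. CCAAT was found at 2 places in the Col4a1 window, 1 in the Col4a2 window and 0 in the Col15a1 window, and GGGCGG at 2, 2 and 0 places. CATTCC was found in none of these windows. Over all 33365 windows, 37.5% held CCAAT, 33.1% GGGCGG and 14.2% CATTCC. Of the 32 collagen genes with a window, 28.1%, 56.2% and 15.6% held them in any window of the gene. Genes with several windows have more chances to count, so these shares are in unlike units and were not compared. GC content was 75.0% for Col4a1, 73.7% for Col4a2 and 55.0% for Col15a1, against a median of 51.7% over all windows. Such matches describe letters only and do not show a binding site.

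Col4a1 had log2 values of 12.61, 12.50 and 12.65 in pulsed cultures with blebbistatin of series 2, 3 and 4, against 12.91, 12.48, 12.79 and 12.85 in pulsed cultures of series 1 to 4. Nonpulsed cultures had 13.00, 12.61 and 12.66 in series 1 to 3. The groups overlapped, and the log2 change between pulsed cultures with and without blebbistatin was -0.10, with a 95% interval from -0.35 to 0.14. Col4a2 averaged 12.10 ± 0.31 with blebbistatin (SD, n = 3), 12.19 ± 0.35 in pulsed cultures (SD, n = 4) and 12.20 ± 0.32 in nonpulsed cultures (SD, n = 3). Its log2 change with blebbistatin over pulsed cultures was -0.00, with a 95% interval from -0.23 to 0.22. The Col4a2 arrays of all groups overlapped.

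Col18a1, whose protein releases the fragment endostatin, averaged 9.94 ± 0.09 with blebbistatin (SD, n = 3), 10.10 ± 0.26 in pulsed cultures (SD, n = 4) and 10.16 ± 0.18 in nonpulsed cultures (SD, n = 3). It had a log2 change of -0.08 (SE 0.09) between pulsed cultures with and without blebbistatin, and its further probe set -0.12. Col4a5 and Col4a6, which encode chains of rarer type IV networks, had changes of -0.15 (SE 0.10) and -0.14 (SE 0.14). The same quantities between blebbistatin and nonpulsed cultures were -0.16 (SE 0.11) for Col18a1, 0.03 (SE 0.11) for Col4a5 and -0.06 (SE 0.15) for Col4a6. Col4a4, a chain of the network best known from the kidney filter, behaved differently from series to series. It had log2 values of 6.59, 7.17 and 6.67 in pulsed cultures with blebbistatin of series 2, 3 and 4. Pulsed cultures had 7.78, 7.72, 7.18 and 7.22 in series 1 to 4, and nonpulsed cultures 6.20, 6.57 and 7.23 in series 1 to 3. All pulsed arrays lay above all arrays with blebbistatin, by a margin of 0.01 at the closest, while pulsed and nonpulsed arrays overlapped through series 3. Its log2 changes were -0.68 (SE 0.28, adjusted p = 0.406) for blebbistatin over pulsed, 0.87 (SE 0.28, adjusted p = 0.495) for pulsed over nonpulsed and 0.19 (SE 0.31, adjusted p = 0.743) for blebbistatin over nonpulsed cultures.

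Fibrillar chains had negative changes with blebbistatin in 10 of 11 cases, with a median log2 change of -0.31 against pulsed cultures and -0.28 against nonpulsed cultures. The medians over all features tested were 0.02 and 0.07. None of the fibrillar chains passed, and the smallest adjusted p was 0.284 and 0.0880 in these comparisons. Against pulsed cultures 9 of the 11 were lower in all 3 series that held both groups, against 15.1% of all features.

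Col5a1 and Col5a3 encode chains of type V collagen, which starts fibrils of type I. Col5a1 had log2 values of 10.51, 10.31 and 10.82 in pulsed cultures with blebbistatin of series 2, 3 and 4. Pulsed cultures had 11.47, 10.72, 10.93 and 11.20 in series 1 to 4, and nonpulsed cultures 11.45, 10.86 and 10.99 in series 1 to 3. Arrays with blebbistatin lay below all nonpulsed arrays but overlapped the pulsed ones, and the log2 changes were -0.42 (SE 0.11, adjusted p = 0.284) over pulsed and -0.48 (SE 0.12, adjusted p = 0.0949) over nonpulsed cultures. Col5a3 averaged 8.20 ± 0.28 with blebbistatin (SD, n = 3), 8.66 ± 0.32 in pulsed cultures (SD, n = 4) and 8.87 ± 0.20 in nonpulsed cultures (SD, n = 3). Its log2 changes were -0.49 (SE 0.16, adjusted p = 0.331) over pulsed and -0.79 (SE 0.18, adjusted p = 0.0880) over nonpulsed cultures. The direct Col5a3 differences over nonpulsed cultures were -0.46 in series 2 and -0.75 in series 3. A limma fit on only these series gave -0.60 (adjusted p = 0.149). Col5a2, the remaining chain of type V, had smaller fitted changes of -0.24 (SE 0.11) over pulsed and -0.36 (SE 0.12) over nonpulsed cultures.

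Col3a1 encodes the type III collagen of compliant tissues. Its log2 values were 12.69, 13.28 and 13.49 in pulsed cultures with blebbistatin of series 2, 3 and 4. They were 13.66, 13.15, 13.52 and 13.69 in pulsed cultures of series 1 to 4, and 13.62, 13.21 and 13.44 in nonpulsed cultures of series 1 to 3. The groups overlapped through the differences between series, but within series 2, 3 and 4 cultures with blebbistatin differed from pulsed ones by -0.45, -0.25 and -0.21. The log2 change was -0.31 (SE 0.10, adjusted p = 0.331) over pulsed and -0.30 (SE 0.11, adjusted p = 0.171) over nonpulsed cultures.

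Col1a1 and Col1a2 encode the chains of type I collagen, the main fibril protein. Col1a1 had log2 values of 13.04, 13.10 and 13.37 in pulsed cultures with blebbistatin of series 2, 3 and 4, against 13.54, 13.05, 13.27 and 13.51 in pulsed cultures of series 1 to 4. Nonpulsed cultures had 13.52, 13.22 and 13.23 in series 1 to 3. The groups overlapped, with a log2 change of -0.12 for blebbistatin over pulsed cultures and a 95% interval from -0.32 to 0.09. The further Col1a1 probe set had a change of -0.24. Its change over nonpulsed cultures was -0.36, while that of the probe set with the highest mean was -0.16. Col1a2 averaged 13.12 ± 0.07 with blebbistatin (SD, n = 3), 13.35 ± 0.08 in pulsed cultures (SD, n = 4) and 13.38 ± 0.10 in nonpulsed cultures (SD, n = 3). All arrays with blebbistatin lay below all other arrays for Col1a2, with changes of -0.21 (SE 0.09, adjusted p = 0.427) and -0.25 (SE 0.10, adjusted p = 0.204). These probe sets lay near the upper end of the array's scale, where the highest value on an array was 13.90 to 14.03. The Col3a1 probe set, at up to 13.69, lay there too.

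Col11a1, a chain of the fibril-starting type XI, had a range among pulsed arrays that was wider than its changes with treatment. Its pulsed arrays ran from 9.14 to 10.89, and its log2 changes with blebbistatin were -0.47 (SE 0.20) over pulsed and -0.73 (SE 0.22) over nonpulsed cultures. Col2a1, the cartilage fibril chain, averaged 5.39 ± 0.11 with blebbistatin (SD, n = 3), 5.77 ± 0.08 in pulsed cultures (SD, n = 4) and 5.43 ± 0.22 in nonpulsed cultures (SD, n = 3). Its pulsed arrays all lay above the arrays with blebbistatin. It had changes of -0.39 (SE 0.13), -0.06 (SE 0.15) and 0.33 (SE 0.13) for blebbistatin over pulsed, blebbistatin over nonpulsed and pulsed over nonpulsed cultures. Of its further probe sets, 1 had a change of the opposite sign between pulsed and nonpulsed cultures (-0.54) and the other a smaller one of the same sign (0.16), so the Col2a1 values depend on the probe set. Col27a1 and Col11a2, the remaining chains near 0, had changes of 0.08 (SE 0.10) and -0.06 (SE 0.09) over pulsed cultures, and Col24a1 one of -0.35 (SE 0.17).

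**Figure D2:**
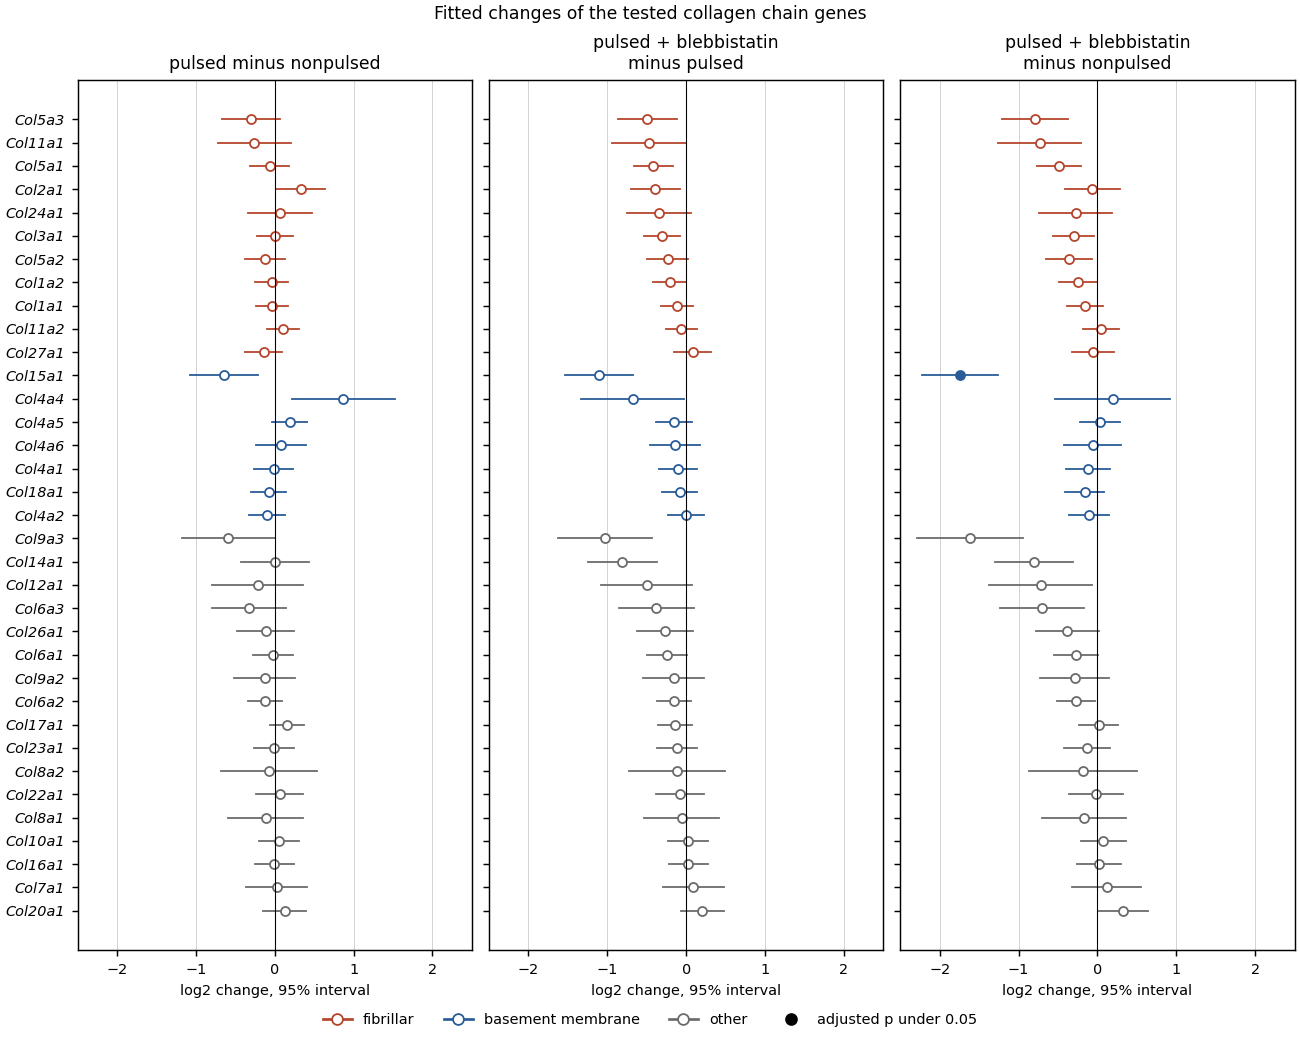
Fitted log2 changes (points) with 95% intervals (lines) of the 35 tested collagen chain genes in the 3 comparisons, coloured by class and ordered within a class by the change between pulsed cultures with and without blebbistatin. The 1 filled point is Col15a1 between pulsed cultures with blebbistatin and nonpulsed cultures, and fibrillar chains lie mostly left of 0 in the blebbistatin panels.

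Of the 17 tested chains of other types, 13 had a negative change with blebbistatin over pulsed cultures, with a median of -0.15, and 12 over nonpulsed cultures, with a median of -0.18. The largest changes were those of Col9a3, Col14a1 and Col12a1, chains that decorate fibrils. Other tested chains of that kind had smaller changes over pulsed cultures, with -0.16 for Col9a2, -0.08 for Col22a1, 0.03 for Col16a1 and 0.21 for Col20a1. Col9a3 encodes a chain of type IX, known from cartilage. It had log2 values of 5.55, 4.99 and 6.02 in pulsed cultures with blebbistatin of series 2, 3 and 4. Pulsed cultures had 5.79, 6.36, 6.72 and 6.95 in series 1 to 4, and nonpulsed cultures 7.13, 6.85 and 6.6 in series 1 to 3. All arrays with blebbistatin lay below all nonpulsed arrays, and pulsed arrays reached down to 5.79 through series 1. The log2 changes were -1.03 (SE 0.25, adjusted p = 0.283) over pulsed and -1.62 (SE 0.29, adjusted p = 0.0651) over nonpulsed cultures. Of the alternatives run, only culture series as a random block let the change over nonpulsed cultures pass (adjusted p = 0.0265).

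Col14a1, whose product coats type I fibrils, had log2 values of 10.67, 11.23 and 12.26 in pulsed cultures with blebbistatin of series 2, 3 and 4. Pulsed cultures had 12.74, 11.88, 12.10 and 12.47 in series 1 to 4, and nonpulsed cultures 12.44, 11.75 and 12.23 in series 1 to 3. The array with blebbistatin of series 4 lay among the other groups. The difference from the pulsed array of the same series was -1.21, -0.87 and -0.21 in series 2, 3 and 4. The log2 changes were -0.81 (SE 0.19, adjusted p = 0.262) over pulsed and -0.81 (SE 0.21, adjusted p = 0.103) over nonpulsed cultures, and 0.00 (SE 0.19) for pulsed over nonpulsed cultures. Its further probe set had -0.76, -0.66 and 0.10 in these comparisons.

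Col12a1, a relative of Col14a1 found on fibrils of loaded tissue, did not have the same sign in all series. Its differences between pulsed cultures with and without blebbistatin were 0.30, -0.70 and -1.20 in series 2, 3 and 4, with a fitted change of -0.50 (SE 0.25). The further Col12a1 probe sets had smaller changes of -0.03 and -0.27 in that comparison. Col12a1 averaged 9.59 ± 0.81 with blebbistatin (SD, n = 3), 10.21 ± 0.26 in pulsed cultures (SD, n = 4) and 10.63 ± 0.20 in nonpulsed cultures (SD, n = 3). Type VI collagen forms beaded filaments near basement membranes. Its chains Col6a1, Col6a2 and Col6a3 had changes of -0.25 (SE 0.11), -0.15 (SE 0.09) and -0.38 (SE 0.20) over pulsed and of -0.27 (SE 0.12), -0.28 (SE 0.10) and -0.71 (SE 0.23) over nonpulsed cultures. Over pulsed cultures the sign was not the same in all series for Col6a1 and Col6a3. The differences in series 2, 3 and 4 were 0.03, -0.41 and -0.36 for Col6a1 and 0.17, -0.52 and -0.89 for Col6a3. The short chain collagens Col8a1 and Col8a2, known from vessel walls, had changes of -0.06 (SE 0.20) and -0.11 (SE 0.26) over pulsed cultures. Col6a3 averaged 10.93 ± 0.14 with blebbistatin (SD, n = 3), 11.40 ± 0.42 in pulsed cultures (SD, n = 4) and 11.72 ± 0.35 in nonpulsed cultures (SD, n = 3). The arrays with blebbistatin lay below all nonpulsed arrays and overlapped the pulsed ones.

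The largest positive changes with blebbistatin over pulsed cultures were those of Col20a1 (0.21, SE 0.12), Col7a1 (0.09, SE 0.17), Col27a1 and Col16a1 (0.03, SE 0.11), of which Col7a1 encodes the anchoring fibril collagen of skin. Over nonpulsed cultures they were those of Col20a1 (0.33, SE 0.13), Col4a4, Col7a1 (0.12, SE 0.19) and Col10a1 (0.07, SE 0.12). None of these passed. The positive sign of Col27a1, Col16a1 and Col10a1 turned without the series block, where the changes were -0.037, -0.11 and -0.029, as the group averages run. Col20a1, a further relative of the fibril-decorating chains, averaged 7.30 ± 0.19 with blebbistatin (SD, n = 3), 7.11 ± 0.16 in pulsed cultures (SD, n = 4) and 7.01 ± 0.14 in nonpulsed cultures (SD, n = 3). Col7a1 averaged 5.93 ± 0.19 with blebbistatin (SD, n = 3), 5.84 ± 0.33 in pulsed cultures (SD, n = 4) and 5.75 ± 0.25 in nonpulsed cultures (SD, n = 3). The groups of both genes overlapped. The fibrillar chain Col27a1 averaged 6.95 ± 0.37 with blebbistatin (SD, n = 3), 6.99 ± 0.38 in pulsed cultures (SD, n = 4) and 7.05 ± 0.40 in nonpulsed cultures (SD, n = 3). Col16a1, whose product lies near fibrils and basement membranes, averaged 9.10 ± 0.32 with blebbistatin (SD, n = 3), 9.21 ± 0.52 in pulsed cultures (SD, n = 4) and 9.13 ± 0.46 in nonpulsed cultures (SD, n = 3). Col10a1, known from growth plate cartilage, averaged 6.18 ± 0.11 with blebbistatin (SD, n = 3), 6.23 ± 0.22 in pulsed cultures (SD, n = 4) and 6.21 ± 0.07 in nonpulsed cultures (SD, n = 3). The groups of these genes overlapped as well.

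Counted over all classes, 30 of 35 tested collagen genes had a negative change with blebbistatin over pulsed cultures, against 44.3% of all features, and 27 of 35 over nonpulsed cultures, against 38.6%. None passed between pulsed cultures with and without blebbistatin, where 0.0163% of all features did. At an unadjusted p under 0.05 in limma, 9 of the 35 were lower (25.7%), against 5.6% of all features, and 0 were higher, against 6.23%. These 9 were 5 of 11 fibrillar, 2 of 7 basement membrane and 2 of 17 other chains. Over nonpulsed cultures 12 were lower at that level (34.3%), against 6.8% of all features, and 1 was higher, against 15.8%. These 12 were 6 of 11 fibrillar, 1 of 7 basement membrane and 5 of 17 other chains. All arrays with blebbistatin lay below all pulsed arrays for 3 tested genes (background 3.69%) and below all nonpulsed arrays for 9 tested genes (background 6.77%). They lay above all pulsed arrays for 0 genes (background 6.34%) and above all nonpulsed arrays for 0 genes (background 18.1%). Both comparisons use the same arrays with blebbistatin, and the differences between classes were not tested.

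The comparison of pulsed with nonpulsed cultures asked for the response to pacing. None of the 35 tested collagen genes passed in limma, against 0% of all features, and the smallest adjusted p was 0.494. A negative change was found for 22 of the 35, against 38% of all features. The median log2 change was -0.04, against 0.05 over all features, with -0.04 for fibrillar, -0.01 for basement membrane and -0.03 for other chains. The sign of these collagen medians was not stable, since without the series block they were 0.0045 for all, 0.014 for fibrillar, 0.00042 for basement membrane and 0.0045 for other chains. At an unadjusted p under 0.05, Col15a1 was lower, against 1.27% of all features, and Col4a4 and Col2a1 were higher, against 7.83%. The most negative changes were those of Col15a1, Col9a3 (-0.59, SE 0.25), Col6a3 (-0.33, SE 0.20) and Col5a3 (-0.30, SE 0.16). The Col6a3 change was -0.14 without the pulsed array of series 2, and the Col5a3 change -0.12 without series 1. The most positive were those of Col4a4, Col2a1, Col4a5 (0.19, SE 0.10) and Col17a1 (0.16, SE 0.09), a transmembrane collagen of epithelial attachment. Col17a1 averaged 5.36 ± 0.30 with blebbistatin (SD, n = 3), 5.47 ± 0.25 in pulsed cultures (SD, n = 4) and 5.29 ± 0.36 in nonpulsed cultures (SD, n = 3). The Col15a1 difference was -1.20, -0.59 and -0.33 in series 1, 2 and 3, and the Col9a3 difference -1.34, -0.49 and 0.12. Of the 35 tested genes, Col4a5 was the 1 whose pulsed arrays all lay above all nonpulsed arrays (background 6.3%), and 0 had all of them below (background 1.04%). Col4a5 had 11.69, 11.45, 11.54 and 11.55 in pulsed and 11.40, 11.25 and 11.41 in nonpulsed cultures. The major fibrillar chains had changes near 0, with -0.04 for Col1a1 (95% interval -0.24 to 0.17), -0.04 for Col1a2 (-0.25 to 0.17) and 0.01 for Col3a1 (-0.23 to 0.24).

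For most chains the 4 pulsed arrays, which come from different culture series, ranged more widely than the fitted change with treatment. Such a range of single arrays also holds array noise and is not the error of the change, so it does not weigh series against treatment. The range of the 4 pulsed arrays exceeded the size of the change between pulsed cultures with and without blebbistatin in 32 of 35 genes, the exceptions being Col4a4, Col1a2 and Col2a1. For the change between blebbistatin and nonpulsed cultures it did so in 29 of 35, and Col15a1, Col1a2, Col5a2, Col5a3, Col12a1 and Col9a3 were the exceptions. Among pulsed arrays Col8a2 ran from 8.86 to 10.63, Col11a1 from 9.14 to 10.89 and Col6a2 from 10.53 to 12.03, each lowest in series 2. Col1a2, by contrast, ran only from 13.24 to 13.41. Series 1 and 4 were higher than series 2 and 3 for Col6a1 and Col6a2 on every array.

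**Figure D3:**
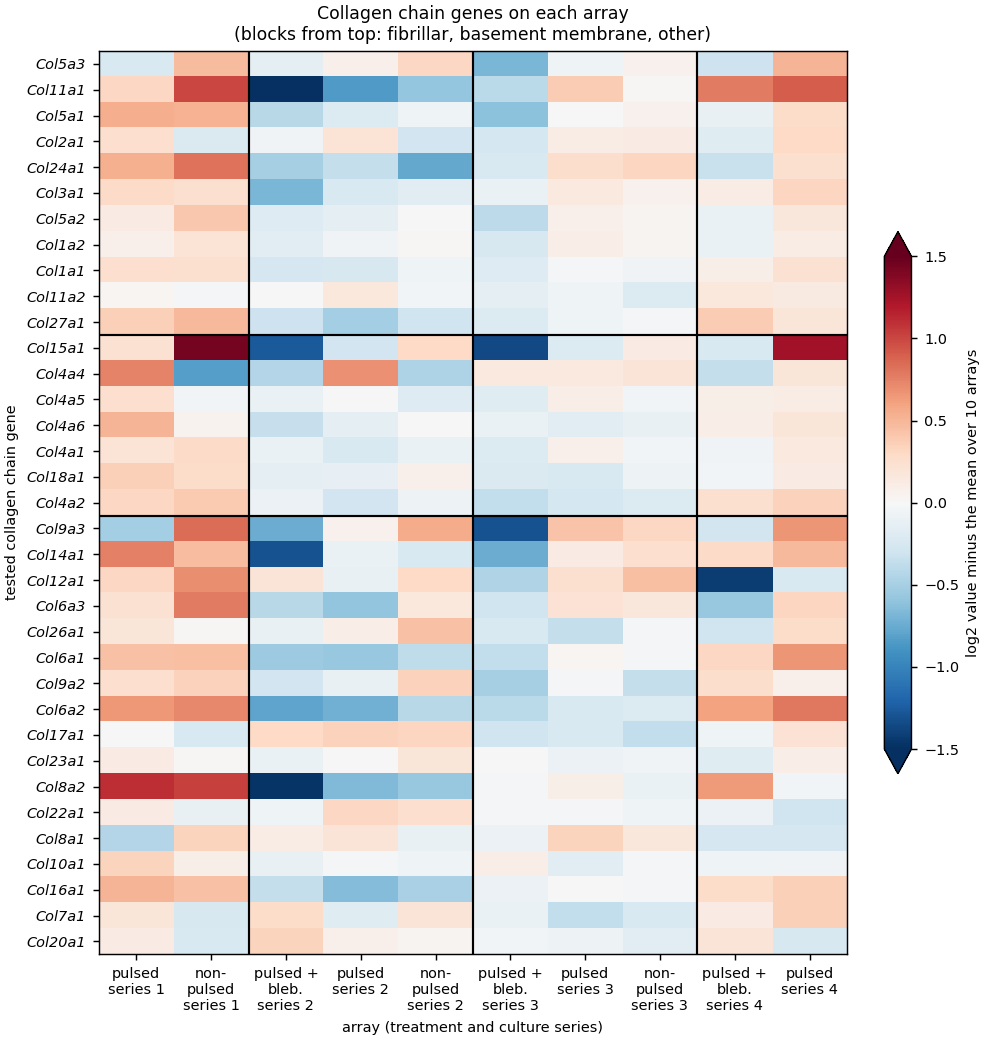
Log2 value of each tested collagen chain gene (rows, by class) on each array (columns, by culture series and treatment), as the difference from the gene's mean over 10 arrays. Colour runs from blue (lower) to red (higher) and is capped at 1.5. Many rows differ between culture series, and Col15a1, Col9a3 and Col14a1 are blue on the arrays with blebbistatin of series 2 and 3.

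Genes that process, anchor or bind collagen were followed through 5 lists. These lists hold no collagens, and members not on the array or under the filter are left out of the counts. Lum, Dcn and Ddr2 are also among the fibroblast markers given below, and Cspg4 among the smooth muscle and pericyte markers. For blebbistatin over pulsed cultures, 15 of 17 genes of synthesis and folding were negative (median -0.20), 7 of 7 of propeptide cleavage and crosslinking (-0.42), 12 of 14 basement membrane partners (-0.19), 5 of 6 collagen receptors (-0.22) and 9 of 10 fibril partners (-0.34). Over all features 44.3% were negative in that comparison. None of these genes passed. The most negative in each were P4ha1, a subunit of the prolyl hydroxylase that stabilises the triple helix (-0.67, SE 0.13), Lox, which crosslinks the fibrils (-0.95, SE 0.13), the laminin chain Lamb3 (-1.15, SE 0.43), the collagen-binding integrin Itga11 (-1.24, SE 0.26) and the fibril-binding proteoglycan Lum (-0.48, SE 0.17). The most positive were Crtap (0.04, SE 0.12), Furin (-0.03, SE 0.12), Lamb2 (0.19, SE 0.11), Ddr2 (0.06, SE 0.10) and Prelp (0.03, SE 0.12).

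Between pulsed cultures with blebbistatin and nonpulsed cultures, 15 of 17, 6 of 7, 10 of 14, 4 of 6 and 10 of 10 members of these lists were negative, in the same order. The share over all features was 38.6%. Lox fell there (log2 change -1.08, SE 0.14, adjusted p = 0.0400) and was the 1 gene of these 5 lists that passed, against 0.343% of all features. That call was lost when any single array was left out (adjusted p of 0.0639 to 0.184), and also without the block (adjusted p = 0.0841). The most negative others were P4ha3 (-0.63, SE 0.27), the basement membrane linker Nid2 (-0.82, SE 0.20), Itga11 (-1.37, SE 0.30) and Aspn (-0.75, SE 0.15). The most positive were Crtap (0.12, SE 0.13), Furin (0.18, SE 0.14), Lamb2 (0.48, SE 0.13), Ddr1 (0.18, SE 0.14) and Ogn (-0.02, SE 0.19). Between pulsed and nonpulsed cultures the list medians lay between -0.13 and -0.01 and none of the genes passed. The most negative there were Fkbp10 (-0.29), Loxl3 (-0.27), Nid2 (-0.37), Cspg4 (-0.18) and Comp (-0.32), and the most positive P4ha2 (0.34), Furin (0.21), Lama2 (0.45), Ddr1 (0.36) and Ogn (0.19).

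Markers of fibroblasts, smooth muscle and pericytes, endothelial cells and macrophages also had mostly negative changes with blebbistatin. Over all features 44.3% were negative over pulsed and 38.6% over nonpulsed cultures. The fibroblast list of 12 genes, which holds no collagens, had a median log2 change of -0.28 between pulsed cultures with and without blebbistatin, with 10 of 12 negative, and -0.27 between blebbistatin and nonpulsed cultures, with 11 of 12 negative. Its summed level, as a log2 value, was 14.08 to 14.86 with blebbistatin, 14.22 to 15.20 in pulsed and 14.38 to 15.27 in nonpulsed cultures. Of these Mfap5, a microfibril gene, fell between blebbistatin and nonpulsed cultures (log2 change -2.08, SE 0.19, adjusted p = 0.0311, against 0.343% of all features called), a call lost without the block (adjusted p = 0.174) and without single arrays of series 2, 3 and 4 other than the pulsed one of series 2 (adjusted p up to 0.177). The smooth muscle and pericyte list had medians of -0.50 and -0.60, with 10 of 10 and 9 of 10 negative, and summed levels of 13.65 to 13.90, 14.27 to 14.44 and 14.15 to 14.70. Endothelial markers had medians of -0.16 and -0.13 over 6 tested genes, and macrophage markers -0.23 and -0.40 over 7, with summed levels of 10.28 to 10.99, 10.32 to 11.03 and 10.30 to 10.77 for the first and 9.63 to 10.43, 9.64 to 11.06 and 9.55 to 11.12 for the second. Heart muscle cell markers were present on all arrays and had medians of 0.01 and 0.30, with summed levels of 15.66 to 15.74, 15.53 to 15.71 and 15.18 to 15.52. Of the Schwann cell and epicardial lists, 1 gene each was tested. Their changes were 0.19 and 0.21 over pulsed cultures, and -0.16 and 0.27 over nonpulsed cultures. None of these lists had a marker at the lowest level on all 10 arrays. The log2 difference between the 3' and 5' GAPDH control probe sets was 0.19 to 0.22 with blebbistatin, 0.06 to 0.17 in pulsed and 0.06 to 0.17 in nonpulsed cultures. That of the actin control was 0.69 to 0.77, 0.60 to 0.72 and 0.45 to 0.68. The part of cell type and RNA quality in the collagen changes was not tested.

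**Figure D4:**
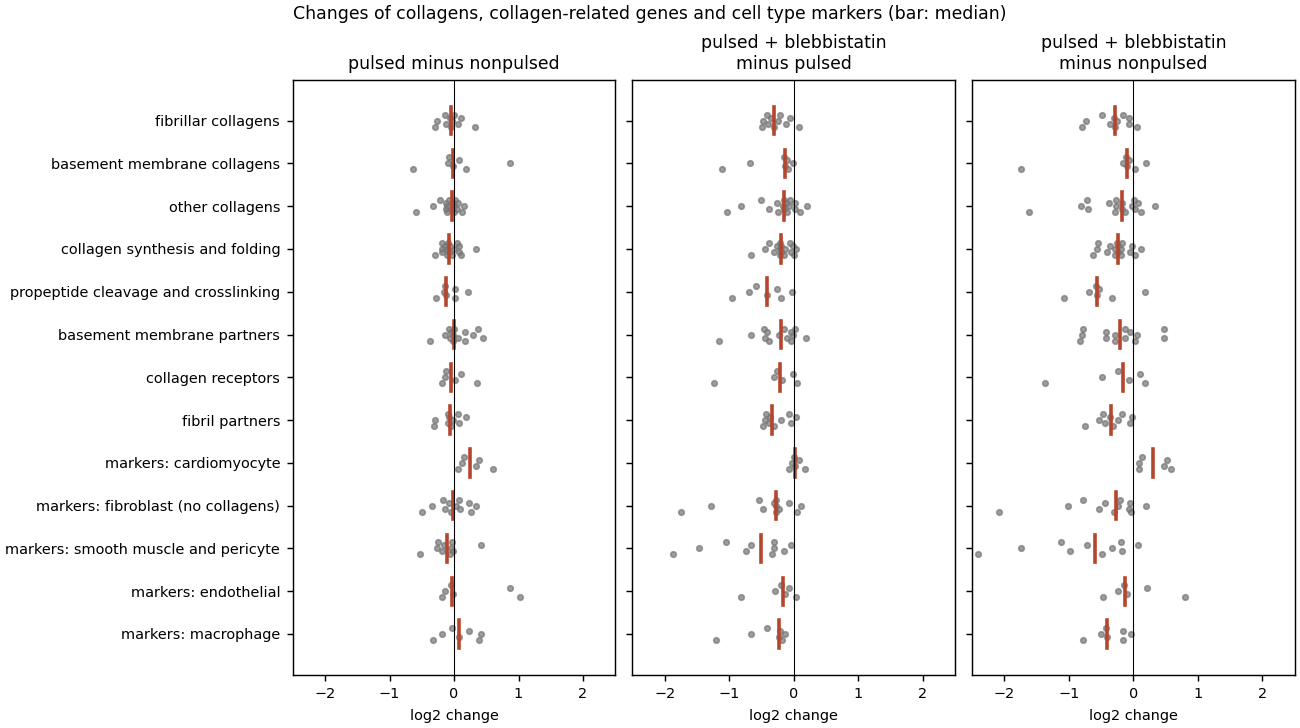
Log2 changes (horizontal axis) of single genes (points) and list medians (bars) for the 3 collagen classes, 5 lists of collagen-related genes and 5 marker lists, in the 3 comparisons. In both blebbistatin panels the medians of all collagen classes and all collagen-related lists lie left of 0. So do those of the smooth muscle and pericyte, fibroblast, endothelial and macrophage markers. That of heart muscle cell markers lies near 0 over pulsed cultures (0.01) and right of 0 over nonpulsed cultures (0.30).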

How the data were processed

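Total RNA was extracted with Trizol and hybridised as biotin-labelled cRNA, per the labels' protocols. The authors' deposited table holds log2 values per probe set. The submitters' processing notes name PLIER and Affymetrix Expression Console 1.1. Settings and log base were not given in the sources used here, and base 2 was taken from the range of the values. Values of equal rank had a largest difference of 0.263 across arrays, and no scaling was added. The members and lists were chosen with earlier results of these data known.

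Of 31099 probe sets, 57 controls and the 25% with the lowest mean (below 5.09) were left out. The probe set with the highest mean stood for each gene, while those without a single symbol were kept as separate features, which gave 18393 features. All 41 collagen symbols were the same in the rat gene table of GRCr8. Promoter windows were found for 32 of the 41 genes, and those of the genes printed come from that table. Group contrasts came from limma (version 3.58.1, R 4.3.3, two-sided, Benjamini-Hochberg), fitted over the 10 arrays with a fixed block for culture series, and the fit was tested on simulated data. Arrays of the same series, which the titles date alike, had deviations from the group means that correlated at 0.347 to 0.640 in all 8 pairs, while those of different series correlated at -0.583 to 0.494, highest between series 1 and 4. Deviations in a group sum to 0, so correlations above 0 in a series force some below 0 between series. This contrast is therefore partly built in. Replicates were separate culture series. Named genes were the passing ones, the 4 most positive and the 4 most negative tested members per comparison, and Col1a1, Col1a2, Col3a1, Col4a1, Col4a2, Col15a1 and Col18a1. Other members are given as examples chosen after their values were seen. Alternatives were other blocks, samples, scalings, filters, probe set rules and priors, and leaving out each array or series.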

Additional observations from a re-analysis of the deposited data

Results flagged for a closer look

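In the pulsed group, Col6a3, a chain of the beaded filament collagen VI, was lowest in series 2 with a log2 value of 10.77, while the other pulsed arrays lay between 11.57 and 11.67. The gap made up 0.89 of the whole range of the group, above Dixon's critical value for 4 samples. Of the 41 genes looked at in this way 1 stood out, and chance gives about 1 in 20.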

How the results depend on the processing

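Without the replicate block, 0 collagen genes passed between pulsed cultures with blebbistatin and nonpulsed cultures, in place of 1, and likewise 0 with only the 2 groups compared and 0 with no filter, where more features are tested. With a random replicate block 3 passed (Col15a1, Col9a3 and Col5a3). Leaving out arrays or series gave 0 to 1 there and 0 to 1 between pulsed cultures with and without blebbistatin, where 1 passed with only the series that hold both groups and 0 in the main setting. All of these calls kept their direction, and the cause was not tested. Features called over the whole array were 3 for blebbistatin over pulsed cultures, but 1 without the block, 7 with a random block, 0 with only the 2 groups or no filter, 30 with only the series that hold both and 6 with the lower 50% left out, and 0 to 30 with arrays left out. For blebbistatin over nonpulsed cultures they were 63, but 30 without the block, 1020 with a random block, 2 with only the 2 groups, 1 with no filter, 19 with only the series that hold both, 136 with a trended and robust prior, and 0 to 46 with arrays left out. The list medians moved by less than the SD within groups of the lists' median levels in all 288 cases. That SD describes levels and includes differences between culture series, so this count cannot show that the median changes were stable. Medians for pulsed over nonpulsed cultures, which lay near 0, changed sign. Without the block they were 0.0045 for all, 0.014 for fibrillar, 0.00042 for basement membrane and 0.0045 for other chains, and with arrays left out they ranged from -0.065 to 0.016, -0.089 to -0.011, -0.096 to 0.057 and -0.13 to 0.039 in that order. Of 1048 repeated gene changes, 951 kept direction and call, 46 lost and 6 gained the call, and 45 changed sign, all of genes with a main change of at most 0.19 in size. For pulsed over nonpulsed cultures these were, without the block, Col1a1 (0.014) and Col4a1 (0.00042), and Col3a1 with quantile normalization (-0.046) or median centring (-0.066). With arrays left out Col1a1 ranged from -0.071 to 0.020, Col4a1 from -0.078 to 0.057 and Col3a1 from -0.055 to 0.080. For blebbistatin over pulsed cultures they were, without the block, Col16a1 (-0.11, and -0.030 with a random block) and Col27a1 (-0.037). With arrays left out Col4a2 ranged from -0.10 to 0.046, Col16a1 from -0.096 to 0.090 and Col7a1 from -0.058 to 0.24. For blebbistatin over nonpulsed cultures they were Col10a1 without the block (-0.029), with quantile normalization (-0.0085) and with median centring (-0.011), and Col4a4 with only the 2 groups compared (-0.017) or only the series that hold both (-0.017). With arrays left out Col10a1 ranged from -0.019 to 0.15, Col7a1 from -0.0014 to 0.25 and Col4a4 from -0.014 to 0.56.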

Other observations

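Some chains below the filter differed between culture series or treatments without being tested. Col6a6, a further chain of type VI, had log2 values of 3.59, 3.45 and 5.08 in pulsed cultures with blebbistatin of series 2, 3 and 4. Pulsed cultures had 5.58, 3.49, 3.32 and 5.77 in series 1 to 4, of which that of series 3 was at the lowest level of the array. Nonpulsed cultures had 4.56, 3.38 and 3.77 in series 1 to 3, of which that of series 2 was at that level. Col13a1, a transmembrane collagen known from the nerve-muscle contact, had 3.95, 4.07 and 4.03 with blebbistatin, 4.29 to 4.59 in pulsed and 4.33, 3.38 and 3.32 in nonpulsed cultures, of which the last 2 were at the lowest level.

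Further probe sets of a gene gave changes of other sizes in several cases. Between pulsed cultures with blebbistatin and nonpulsed cultures they gave -0.69 for Col5a1 and -0.99 for Col6a3, where the probe sets with the highest mean gave -0.48 and -0.71. Col4a6 gave -0.41 in place of -0.14 between pulsed cultures with and without blebbistatin.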
